A study of Mus musculus with 83 samples.

Results

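The mouse mitochondrial genome supplied 37 of the 32101 genes in the small RNA table, and these were taken as every gene placed on chromosome MT, without regard to any measured value. They comprise 22 tRNA genes, 2 rRNA genes and 13 protein-coding genes. The mitochondrial genome is a small circle inside the organelle, transcribed from both strands into long precursors in which tRNAs punctuate the rRNAs and mRNAs. Excision of the tRNAs releases the other transcripts. All of its proteins belong to the respiratory chain or the ATP synthase, and its rRNAs and tRNAs serve the mitochondrial ribosome. Short fragments of such RNAs are sequenced along with miRNAs when a library is made from all small RNA of a cell.

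The cells were mouse embryonic stem cells (ESCs) grown in serum with LIF, with or without feeder cells on gelatin. Their strain is E14 in the labels and C57BL/6 in the methods. Per the methods both copies of *Dnmt1*, whose product copies DNA methylation to the new strand, are flanked by loxP sites in a single parental line, and Cre, switched on by tamoxifen, deletes them in Dnmt1 KO. Control and Dnmt1 KO cells were sampled on days 1, 3, 6, 9, 11 and 25 with 3 libraries per group (36 libraries). AGO2, an Argonaute protein that holds miRNAs, was pulled down in 8 further libraries, 4 per genotype, which the study places on day 9 and the labels on no day. Primordial germ cells (PGCs) of C57BL/6 embryos, female and male, at E13.5 and E14.5 gave 4 libraries, 1 for each combination. The methods name the substrain C57BL/6J and sorting by an Oct4-GFP transgene. The remaining libraries are 30 time course and 3 PGC libraries with the suffix R1 in their title, and 2 labelled "none" for which no meaning is given. Genotypes follow the titles, because the genotype tag contradicts the title in the AGO2 libraries, the "none" libraries and the R1 libraries of days 1 to 9, and PGCs are tagged as ESCs. The series calls its replicates biological, without stating whether they were separate cultures, so the p-values measure the spread between libraries, which may be technical.

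Values are given as RPM, a gene's reads scaled to a fixed library total, or as RPKM, the same per kilobase of gene, where genes are compared with each other. Mitochondrial genes took 0.761 to 1.71% of reads on days 1 to 11 (11031 to 105700 reads per library), 0.852 to 1.06% on day 25 (4547 to 7827 reads), 0.363 to 0.554% in PGCs, and 0.00218 to 0.0102% in AGO2 (111 to 809 reads). The summed mitochondrial RPM of each R1 time course library lay within 0.973 to 1.03 times that of the library of the same name, so the R1 libraries were not counted as replicates. ESC marker miRNAs (the miR-290 and miR-302 clusters) were all detected in the time course, 12 of 12, at a summed 110780 to 209785 RPM, and reached at most 24377 RPM in the 4 PGC libraries. Liver, muscle and neuron markers stayed at or below 11.4 RPM in total RNA and AGO2. Reads over *Dnmt1* itself were 23.1 to 95.02 RPM in control and 18.1 to 64.3 RPM in Dnmt1 KO, and fragments over a gene do not measure its mRNA, so they do not check the deletion.

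Small RNA levels differed widely along the mitochondrial genome. The 5 tRNA genes printed here differ in how much of their sequence is found in the mitochondrial genome alone. In NCBIM37, the build of the table, windows of 22 bases lying wholly inside each gene were searched outside chromosome MT, on either strand. A base is in capitals if it lies in at least 1 window not found there, and in lower case otherwise. The first 3 are the tRNA genes with the highest level, for valine (MT:1025-1093, plus strand), methionine (MT:3845-3913, plus) and serine (MT:11613-11671, plus). The last 2, for glutamate (MT:14071-14139, minus) and lysine (MT:7700-7764, plus), hold no such window.
mt-Tv: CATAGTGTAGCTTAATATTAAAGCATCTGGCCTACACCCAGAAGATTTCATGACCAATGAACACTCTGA
mt-Tm: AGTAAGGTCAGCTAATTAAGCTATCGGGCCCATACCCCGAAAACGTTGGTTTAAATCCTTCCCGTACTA
mt-Ts2: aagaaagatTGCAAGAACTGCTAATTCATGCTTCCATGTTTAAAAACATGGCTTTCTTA
mt-Te: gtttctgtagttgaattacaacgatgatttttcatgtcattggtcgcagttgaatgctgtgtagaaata
mt-Tk: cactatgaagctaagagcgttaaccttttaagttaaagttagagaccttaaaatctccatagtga
All 69 bases of mt-Tv and of mt-Tm and 50 of 59 bases of mt-Ts2 are in capitals, whereas none of the 69 bases of mt-Te or of the 65 bases of mt-Tk is. Bases in capitals can also lie in a shared window: 14.6% of the windows of mt-Tm occur elsewhere.

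Of the 16278 windows of 22 bases on chromosome MT, 7613 (46.8%) also occur in nuclear DNA. The longest copy is on chromosome 1, where 3067 bases (chr1:24619957-24623023) are identical to MT:6394-9460. In 14 of the 37 genes every window has a copy elsewhere, and 8 of these had no read in any of the 83 libraries: the tRNA genes mt-Ts1, mt-Td and mt-Tk, the cytochrome c oxidase subunits mt-Co2 and mt-Co3, the ATP synthase subunits mt-Atp6 and mt-Atp8, and the NADH dehydrogenase subunit mt-Nd4l. mt-Ty, also without a unique window, had a single read in the 83 libraries. The 14 genes together held 0.284% of the 1257888 mitochondrial reads of the 36 time course libraries, and mt-Te, with 1801 reads, had the most. Conversely, mt-Tv and the NADH dehydrogenase subunit mt-Nd1, the 2 genes without a shared window, had reads in all 36. A filter of at least 10 RPM in at least 3 libraries was passed by 24 genes: 14 tRNA, 2 rRNA and 8 protein-coding. They include 22 of the 23 genes with a unique window (all but mt-Tr) and 2 of the 14 without one (mt-Tw and mt-Te). How reads with several matches were treated is not given in the sources used here. A count of 0 in genes without a unique window therefore does not show that the RNA is absent. Likewise, reads counted for genes with shared windows may in part stem from nuclear copies.

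**Figure D1:**
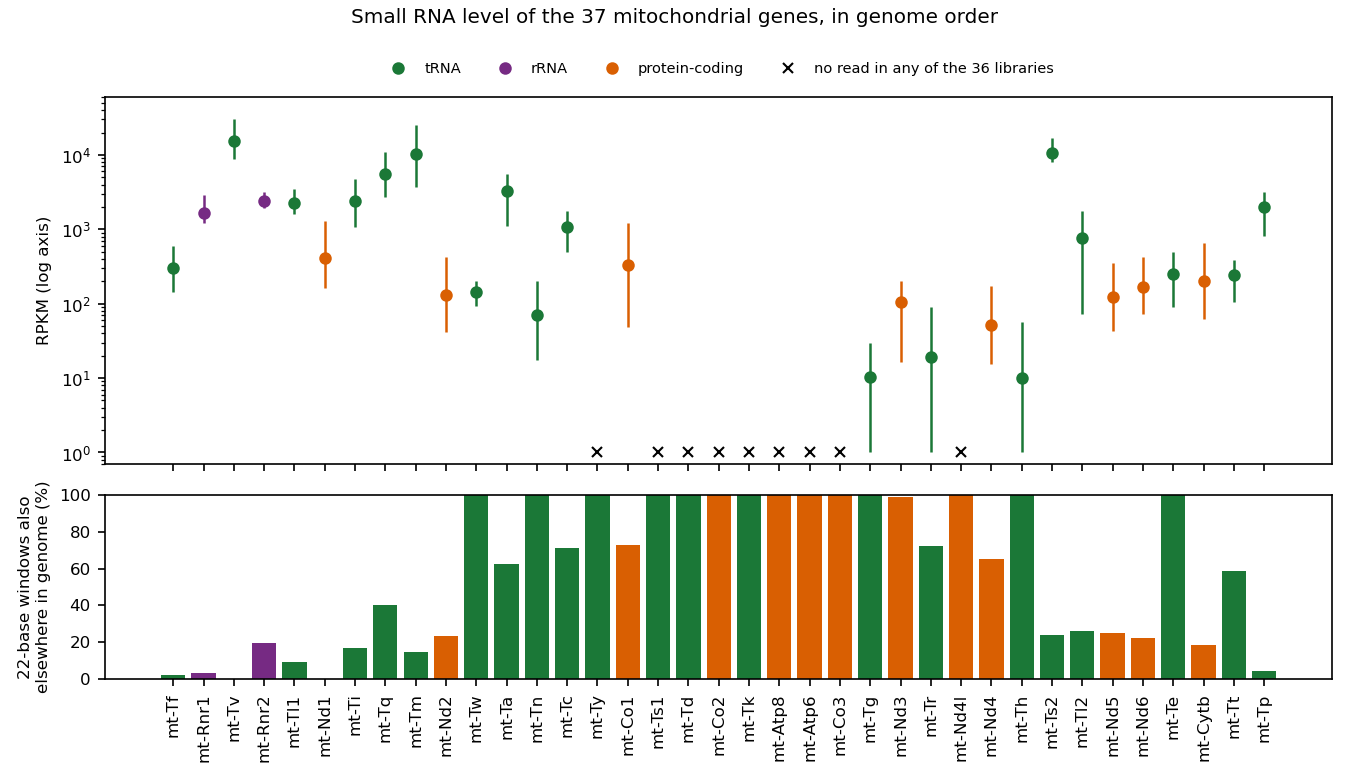
Top, small RNA level (RPKM, log axis) of each mitochondrial gene in genome order over the 36 time course libraries; points are means, lines run from the lowest to the highest library, with values of 0 drawn at 1, and crosses mark 9 genes without reads. Bottom, percentage of each gene's 22-base windows that also occur elsewhere in the genome: the genes marked with crosses are all at 100%.

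Per length, tRNA genes held the highest levels. mt-Tv led with a mean of 15353 RPKM over the 36 libraries (lowest 8880, median 13669, highest 30831). mt-Ts2 followed at 10713 RPKM (7988, 10168 and 16913) and mt-Tm at 10209 RPKM (3671, 8142 and 25368). The ranges of these 3 overlap, so their order is not set beyond the spread between libraries. The tRNA genes of glutamine (mt-Tq, 5554 RPKM) and alanine (mt-Ta, 3274 RPKM) came next. Levels of the tRNA genes with reads on average extended down to 9.97 RPKM (mt-Th), and the 4 genes highest in RPM held 75.9% of the tRNA RPM.

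The 2 rRNA genes lay below mt-Ta, but above many of the other tRNA genes. The large-subunit rRNA gene mt-Rnr2, which had the smallest ratio of highest to lowest library among the 24 genes, averaged 2435 RPKM (lowest 1918, median 2378, highest 3134) and the small-subunit rRNA gene mt-Rnr1 1678 RPKM (1214, 1559 and 2923). Longer than the tRNA genes and higher per length than the protein-coding genes, they carried the most reads of any member, 425260 and 183903 in the 36 libraries. Protein-coding genes were lower per length: mt-Nd1 averaged 411 RPKM (165, 331 and 1283), and the cytochrome c oxidase subunit mt-Co1 averaged 330 RPKM (48.7, 257 and 1231). The other 6 that passed the filter averaged 203 RPKM (the cytochrome b gene mt-Cytb) to 52.4 RPKM (mt-Nd4). RPKM divides by the whole gene length. Of the 22-base windows, 0% in mt-Nd1, 72.8% in mt-Co1, 62.5% in mt-Ta and 99.1% in mt-Nd3 have a copy elsewhere. The order of genes per length, in every class, may therefore depend on how reads with several matches were counted. mt-Nd1 and mt-Co1 together held 53.5% of the protein-coding RPM. Of the 28 genes annotated on the plus strand 18 passed the filter, as did 6 of the 9 on the minus strand. Whether counting used the strand is not stated, so reads of a gene and of the transcript opposite it cannot be told apart, and neighbours that overlap by a few bases (mt-Nd1 and mt-Ti, mt-Ti and mt-Tq, mt-Nd2 and mt-Tw, mt-Co1 and mt-Ts1, mt-Atp8 and mt-Atp6, mt-Atp6 and mt-Co3, mt-Ts2 and mt-Tl2, mt-Nd4l and mt-Nd4, mt-Nd5 and mt-Nd6) may share reads.

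The main comparison asked whether mitochondrial fragments differ between Dnmt1 KO and control. Whether control cells also received tamoxifen is not stated for these libraries, so deletion, drug and Cre cannot be told apart. Protein-coding fragments were higher in Dnmt1 KO on days 6 and 9, when their summed level was 2.09 and 2.31 times that of control, and were near control on day 11. On day 6 the control libraries summed to 735 ± 17.1 RPM and the Dnmt1 KO libraries to 1540.0 ± 92.8 RPM (mean ± SD, n = 3 each). On day 9 the sums were 1995 ± 243 and 4599 ± 768 RPM. On the other days the ratio of Dnmt1 KO to control was 1.126 (day 1), 1.27 (day 3), 0.972 (day 11) and 1.26 (day 25), and the groups overlapped on days 1 and 11. The rRNA sum differed less, by a ratio of 1.29 on day 6 and 1.48 on day 9 and between 1.03 and 1.14 on the other 4 days, and tRNA ratios ran from 0.954 to 1.22. As a share of mitochondrial reads, protein-coding fragments were 9.38 ± 0.612% in control against 14.6 ± 1.096% in Dnmt1 KO on day 6, and 17.9 ± 1.17% against 28.4 ± 3.14% on day 9. No test was made of these sums over genes.

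**Figure D2:**
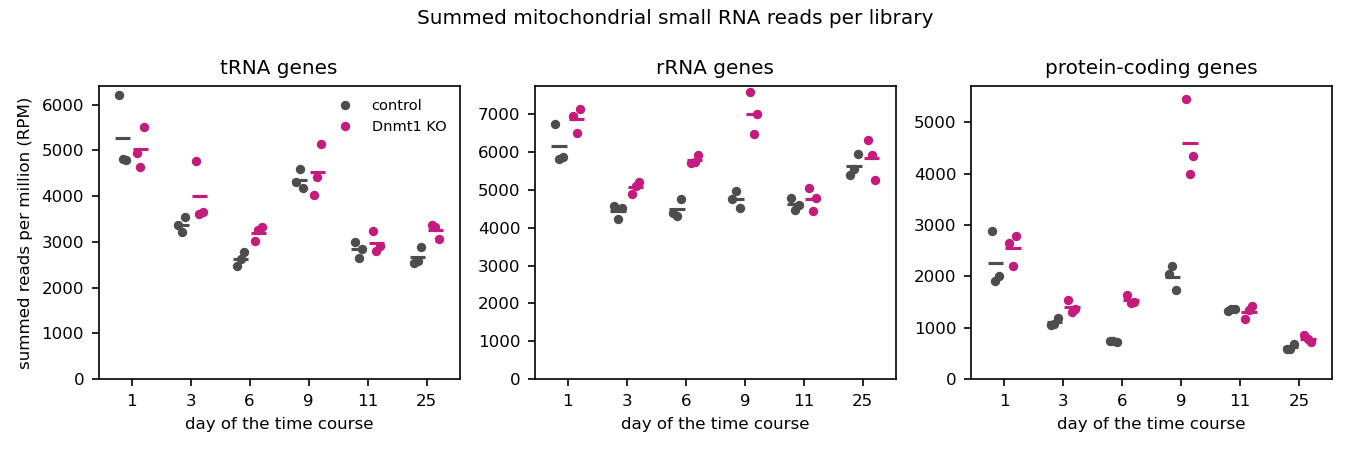
Summed RPM of mitochondrial tRNA, rRNA and protein-coding genes in each of the 36 time course libraries by day (points, 3 per group; horizontal lines are means; linear axes from 0). In the right panel Dnmt1 KO libraries lie above all control libraries on days 6 and 9, whereas the groups overlap on days 1 and 11.

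Feeder and fibroblast markers also differed between the genotypes. Of 6 miRNAs listed as markers of such cells 5 were in the table and 4 were detected in these libraries, with *Mir143* giving most of the reads and *Mir199a-1* at 0. Their summed level was 6132 to 7144 RPM in control and 11242 to 12515 RPM in Dnmt1 KO on day 6, and 10984 to 14913 against 20919 to 22910 RPM on day 9. It was also higher on day 3 (10331 to 10698 against 15501 to 17839 RPM), and on day 11 (10596 to 11209 against 12417 to 14632 RPM), and overlapped on day 1. Blood-cell miRNAs, 4 of 4 detected, summed to 1338 to 1622 RPM in control and 2001 to 2391 RPM in Dnmt1 KO on day 6, and to 727 to 839 against 1842 to 2130.0 RPM on day 9. On day 11, when mitochondrial sums overlapped, they differed as well (577 to 657 against 1615 to 2079.9 RPM). ESC markers summed to 111105 to 114800 RPM in control and 130508 to 139222 RPM in Dnmt1 KO on day 6. On day 9 they were lower in Dnmt1 KO (119986 to 126671 against 111278 to 112585 RPM). Without overlap, they were also higher in Dnmt1 KO on days 1 and 3 and lower on day 11. In such bulk RNA, fewer cells of a type and less RNA per cell cannot be told apart. Fragments of nuclear protein-coding genes that contain no small RNA gene summed to 60957 ± 1151 RPM (control) and 76992 ± 4745 RPM (Dnmt1 KO) on day 6, and to 63519 ± 3206 and 70164 ± 2110 RPM on day 9. The part of these markers and fragments in the mitochondrial differences was not tested.

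Single genes were tested with limma over all 2582 genes that passed the filter, on log2(RPM + 1) after TMM scaling, and called at a Benjamini-Hochberg adjusted p under 0.05. On day 1, limma called 0 of the 24 mitochondrial genes (3.80% of all genes tested were called, 2.87% higher and 0.930% lower), and 2 had an unadjusted p under 0.05. The same comparison by voom and by the other settings tried also gave 0 calls. On day 3, 3 genes were called, all higher in Dnmt1 KO (6.24% of all genes were called, 4.49% higher and 1.74% lower). mt-Co1 measured 239, 261 and 316 RPM in control and 402, 358 and 391 RPM in Dnmt1 KO, a log2 change of 0.52 ± 0.15 (SE; limma adjusted p = 0.03154). mt-Nd4, another NADH dehydrogenase subunit, measured 47.7, 40.7 and 48.2 against 86.8, 54.0 and 62.6 RPM (0.56 ± 0.18, adjusted p = 0.04889). mt-Tc, the cysteine tRNA gene, measured 58.4, 52.9 and 63.0 against 112, 68.6 and 69.9 RPM (0.50 ± 0.15, adjusted p = 0.03906). In none of the 3 did the groups overlap, but replicate 1 of Dnmt1 KO stood above its group in mt-Nd4 and mt-Tc. The number of calls was 0 without Dnmt1 KO replicate 1, control replicate 1 or control replicate 2, and 5 without Dnmt1 KO replicate 2.

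On day 6, 10 of the 24 genes were called, all higher in Dnmt1 KO (23.0% of all genes were called, 13.7% higher and 9.33% lower): 6 of 8 protein-coding genes, 3 of 14 tRNA genes and mt-Rnr2. The median log2 change was 0.90 for the protein-coding genes, 0.26 for rRNA and 0.21 for tRNA, beside 0.14 over all genes tested. mt-Co1 measured 174, 174 and 173 RPM in control and 487, 443 and 427 RPM in Dnmt1 KO (log2 change 1.27 ± 0.15, limma adjusted p = 1.783e-08). All 3 Dnmt1 KO libraries stood far above a control group that hardly varied. Of the 22-base windows, 72.8% in mt-Co1, 65.2% in mt-Nd4 and 0% in mt-Nd1 have a copy elsewhere in the genome. Reads of mt-Co1 and mt-Nd4 may in part stem from nuclear copies, which was not tested. mt-Nd5 measured 108, 106 and 108 RPM in control and 282, 231 and 238 RPM in Dnmt1 KO (1.104 ± 0.14, adjusted p = 2.825e-08). mt-Nd2 measured 47.0, 43.3 and 50.99 RPM against 101.3, 103 and 109 RPM (1.03 ± 0.15, adjusted p = 9.318e-07). Both are NADH dehydrogenase subunits, and in neither did the groups overlap. mt-Nd4 (0.96), mt-Nd1 (0.84) and mt-Cytb (0.72) rose too, and among tRNA genes mt-Tq (0.53), the proline tRNA gene mt-Tp (0.43) and mt-Tm (0.34). The 2 protein-coding genes that did not pass were mt-Nd3 and mt-Nd6. The smaller calls were less firm: mt-Rnr2 (0.27) was lost without Dnmt1 KO replicate 3 or control replicate 2, and mt-Tm and mt-Tp each without any of 5 libraries.

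On day 9 the protein-coding and rRNA medians were the highest of the 6 days. Of the 24 genes, 11 were called and all were higher in Dnmt1 KO (18.4% of all genes were called, 12.3% higher and 6.12% lower): 7 of 8 protein-coding genes, both rRNA genes and 2 of 14 tRNA genes. The median log2 change was 1.26 for protein-coding genes, 0.73 for rRNA and 0.17 for tRNA, beside 0.085 over all genes. mt-Co1 measured 633, 705 and 521 RPM in control and 1902, 1364 and 1524 RPM in Dnmt1 KO (1.48 ± 0.15, limma adjusted p = 3.835e-10). mt-Cytb measured 267, 273 and 222 RPM against 743, 542 and 588 RPM (1.404 ± 0.15, adjusted p = 4.8e-10). In both, every Dnmt1 KO library exceeded every control library, and Dnmt1 KO replicate 1 was the highest. mt-Rnr1 measured 1472, 1537 and 1378 RPM in control and 2791, 2214 and 2584 RPM in Dnmt1 KO (0.90 ± 0.09, adjusted p = 3.835e-10). Its groups did not overlap either, and its change was larger than that of mt-Rnr2 (0.56). The NADH dehydrogenase subunits mt-Nd4 (1.49), mt-Nd2 (1.28), mt-Nd1 (1.24), mt-Nd5 (1.21) and mt-Nd6 (0.79) rose, and mt-Nd3 alone among the protein-coding genes did not pass (0.20). mt-Tq (0.48) and mt-Tc (0.45) were the tRNA genes called, the latter with overlapping groups and lost in 8 of 14 alternatives, among them leaving out any of 4 libraries. The tRNA gene with the highest level, mt-Tv, measured 1231, 1358 and 1175 RPM in control and 1165, 1287 and 1382 RPM in Dnmt1 KO, and mt-Ts2 measured 724, 771 and 720 against 519, 603 and 693 RPM. Neither was called.

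**Figure D3:**
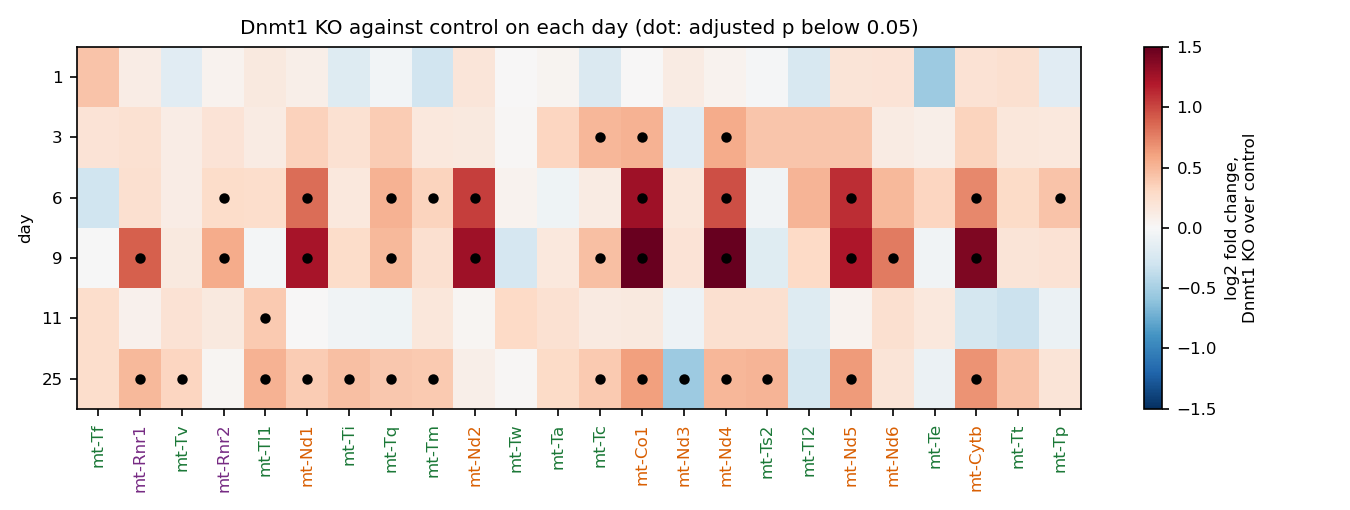
Log2 fold change of Dnmt1 KO over control for the 24 genes that passed the filter (columns in genome order, gene classes by label colour) on each day (rows); red is higher in Dnmt1 KO and dots mark limma adjusted p under 0.05. The darkest squares are those of mt-Co1, mt-Nd4 and mt-Cytb on day 9.

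By day 11 the differences had narrowed. Only mt-Tl1, a leucine tRNA gene, was called in limma's test (8.64% of all genes were called, 6.27% higher and 2.36% lower), at 142, 121 and 131 RPM in control and 167, 155 and 168 RPM in Dnmt1 KO (0.40 ± 0.11, adjusted p = 0.01642). The groups did not overlap, yet no gene was called without Dnmt1 KO replicate 1, control replicate 2 or control replicate 3. mt-Co1 measured 366, 382 and 370 RPM in control and 353, 405 and 413 RPM in Dnmt1 KO on that day, which overlap.

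On day 25, in the shallowest libraries, 14 genes were called, 13 higher and 1 lower (35.0% of all genes were called, 18.0% higher and 17.0% lower). The class medians were 0.44 (protein-coding) and 0.26 (rRNA), below those of day 9, and 0.36 (tRNA), above that of day 9, beside -0.0016 over all genes. The rRNA value lies midway between mt-Rnr2 (0.034, not called) and mt-Rnr1 (0.49), and the summed rRNA levels of the genotypes overlapped. mt-Rnr1 measured 1300, 1315 and 1585 RPM in control and 1969, 1872 and 1615 RPM in Dnmt1 KO (0.49 ± 0.09, limma adjusted p = 6.961e-05). mt-Nd5 measured 87.8, 78.7 and 85.8 against 127, 109 and 131 RPM (0.64 ± 0.14, adjusted p = 0.0002824). mt-Tl1 measured 154, 196 and 195 against 246, 259 and 220 RPM (0.52 ± 0.11, adjusted p = 0.0002855). The groups of these 3 genes did not overlap, although the mt-Rnr1 groups nearly met. mt-Ts2, at 583, 654 and 804 against 846, 954 and 881 RPM, rose by 0.51 ± 0.14 (adjusted p = 0.00396). The only gene called lower was mt-Nd3 (16.1, 21.1 and 23.3 against 17.7, 17.9 and 5.69 RPM, adjusted p = 0.04922), whose groups overlap and whose change rests on replicate 3 of Dnmt1 KO. The count was 8 without control replicate 2, 9 without Dnmt1 KO replicate 1 and 7 without Dnmt1 KO replicate 2. Feeder and fibroblast markers were low on that day. Their sum, mostly *Mir143*, was 954 to 1050 RPM in control and 1247 to 1292 RPM in Dnmt1 KO, without overlap. *Mir145*, on the same list, went the other way (37.6 to 57.6 against 28.2 to 33.8 RPM). Lower in Dnmt1 KO were also blood-cell miRNAs (638 to 673 against 439 to 493 RPM) and nuclear protein-coding fragments (78272 ± 689 against 67871 ± 2396 RPM). ESC markers were lower too, at 176156 to 209785 RPM in control against 136659 to 141633 RPM in Dnmt1 KO, without overlap. The part of these markers and fragments in the day 25 calls was not tested.

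Averaged over the 6 days, 16 of the 24 genes were higher in Dnmt1 KO and 0 were lower by limma (26.7% of all genes were called, 16.6% higher and 10.1% lower), comprising 7 protein-coding genes, both rRNA genes and 7 tRNA genes. mt-Co1 had the largest mean log2 change (0.67 ± 0.06), and 18 genes had an unadjusted p under 0.05. Whether the signed log2 difference of Dnmt1 KO from control changed from day 1 to day 25 was tested directly. It was called for 6 genes, all with a higher signed value on day 25 (19.9% of all genes were called, 9.72% higher and 10.2% lower). mt-Tm changed by 0.67 ± 0.18 (adjusted p = 0.005687): it measured 1750, 1348 and 1272 RPM in control and 1254, 1126 and 1414 RPM in Dnmt1 KO on day 1, and 292, 253 and 296 against 331, 336 and 353 RPM on day 25. For mt-Tv (0.49 ± 0.16, adjusted p = 0.02368), control and Dnmt1 KO measured 2127, 1520 and 1577 and 1621, 1512 and 1776 RPM on day 1, and 941, 904 and 1030.0 and 1294, 1098 and 965 RPM on day 25. For mt-Ti, the isoleucine tRNA gene (0.65 ± 0.22, adjusted p = 0.03176), they measured 232, 183 and 195 and 177, 176 and 214 RPM on day 1, and 80.7, 74.8 and 76.0 and 113, 111 and 75.8 RPM on day 25. On day 1 all 3 genes overlapped between genotypes, with Dnmt1 KO lower on average. On day 25 Dnmt1 KO was higher on average in all 3, and mt-Tm alone did not overlap. For these genes the difference changed sign rather than grew. Only 1 gene was called without day 1 Dnmt1 KO replicate 1 or 2 or day 1 control replicate 1, against 3 without day 25 control replicate 2 and 2 without day 25 Dnmt1 KO replicate 2.

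Mitochondrial fragments also differed between days in the control cells alone. Each day has its own libraries and no batch is named in the labels, so day and library batch cannot be told apart. From day 1 to day 11, 15 of the 24 genes fell and 0 rose by limma (34.9% of all genes were called and 18.3% were called lower), with 17 at an unadjusted p under 0.05. mt-Tm went from the day 1 values above to 479, 467 and 492 RPM, a log2 change of -1.60 ± 0.13 (adjusted p = 2.217e-13). mt-Tv went to 717, 663 and 710 RPM (-1.32 ± 0.11, adjusted p = 1.95e-12). mt-Co1 went from 972, 631 and 739 RPM to 366, 382 and 370 RPM (-1.06 ± 0.15, adjusted p = 5.417e-07). In each, all day 11 libraries lay below all day 1 libraries. The course was not steady: mt-Co1 stood at 173 to 174 RPM on day 6 and at 521 to 705 RPM on day 9 in control cells.

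From day 1 to day 25, 19 genes fell and 0 rose by limma (50.9% of all genes were called and 28.1% were called lower), including all 8 protein-coding genes. mt-Co1 fell most, to 75.3, 106 and 128 RPM (-3.05 ± 0.15, adjusted p = 5.989e-20). mt-Tm fell to 292, 253 and 296 RPM (-2.50 ± 0.13, adjusted p = 5.989e-20). mt-Cytb fell from 389, 255 and 264 to 71.7, 72.9 and 113 RPM (-1.94 ± 0.15, adjusted p = 1.793e-14). No day 25 library reached the day 1 level in these genes. The second leucine tRNA gene mt-Tl2 fell by 2.52 on the log2 scale. In contrast, mt-Rnr2 measured 4627, 4165 and 4186 RPM on day 1 and 4095, 4234 and 4367 RPM on day 25, mt-Ts2 597, 544 and 541 and then 583, 654 and 804 RPM, and neither was called. Class medians were -1.67 for protein-coding genes, -1.07 for tRNA and -0.34 for rRNA, beside -0.044 over all genes. The share of protein-coding fragments among mitochondrial reads was 16.4 ± 1.60% on day 1 and 6.96 ± 0.249% on day 25. Feeder and fibroblast markers fell over the same interval from a mean of 9932 to 996 RPM in control, but stood at 10854 RPM on day 11. Blood-cell miRNAs in control went from 2028 to 2396 RPM on day 1 to 577 to 657 RPM on day 11 and 638 to 673 RPM on day 25. ESC markers went from 116832 to 123978 RPM on day 1 to 126139 to 128664 RPM on day 11 and 176156 to 209785 RPM on day 25. The part of these markers in the decline was not tested.

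**Figure D4:**
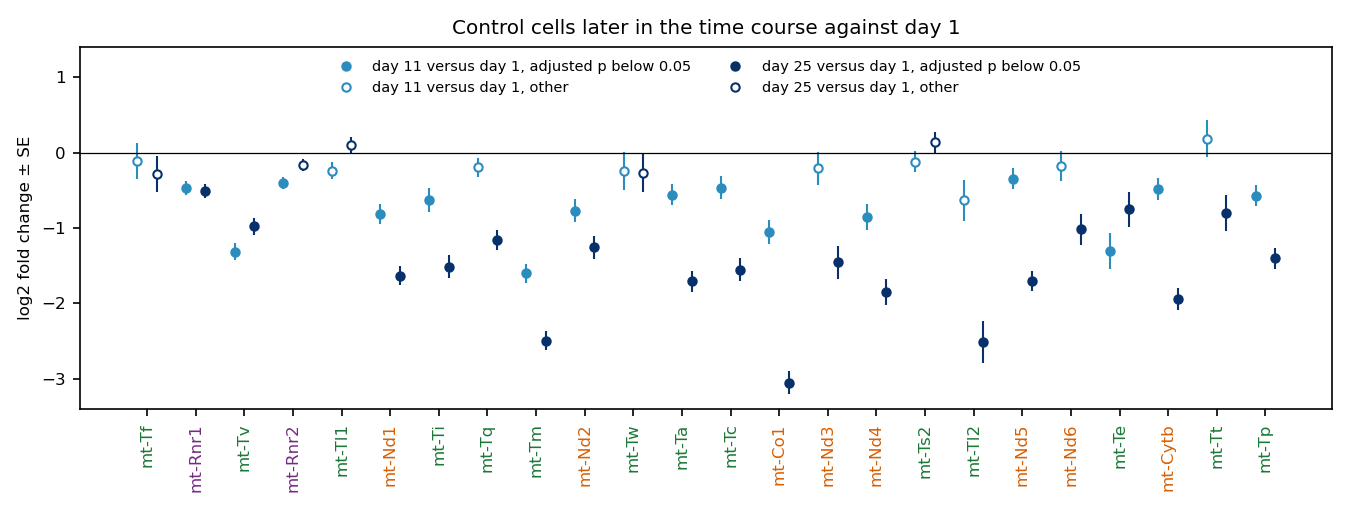
Log2 fold change (point) ± SE of control cells on day 11 (light) and day 25 (dark) against day 1 for the 24 genes that passed the filter; filled points have a limma adjusted p under 0.05. mt-Co1, mt-Tl2 and mt-Tm lie lowest on day 25, and mt-Ts2 and mt-Tl1 have no filled point, while mt-Rnr2 has one on day 11 only.

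AGO2 pull-downs held few mitochondrial fragments in either genotype. The summed level was 24.4 ± 3.09 RPM for control and 84.1 ± 17.4 RPM for Dnmt1 KO (n = 4 each), beside 11112 ± 662 and 16150 ± 1136 RPM in total small RNA of day 9 (n = 3 each). Of the 24 genes, 22 passed the filter only through total RNA, where they are high, so that a lower value in AGO2 was fixed for them by the filter. Against total RNA of day 9, the 24 genes tested were lower in AGO2, in control (95.3% of all 1564 genes tested were called and 73.1% were called lower) and in Dnmt1 KO (94.8% and 70.7%). The median log2 change of the mitochondrial genes was -5.62 in control and -5.56 in Dnmt1 KO, beside -2.43 and -2.40 over all genes, while miRNAs took 98.96 ± 0.0863% and 98.1 ± 0.137% of AGO2 reads. Scaled to the reads outside miRNA genes, the mitochondrial medians were -2.74 and -2.79, beside -0.00067 and -0.30 over all genes. These medians rest on fitted values of genes with few AGO2 reads, which depend on the pseudocount.

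Both rRNA genes had enough AGO2 reads to be followed by library. mt-Rnr1 measured 4.64, 5.13, 4.37 and 6.45 RPM in AGO2 control and 19.1, 18.7, 16.6 and 16.1 RPM in AGO2 Dnmt1 KO. mt-Rnr2 measured 5.88, 5.83, 4.85 and 6.69 RPM in AGO2 control, beside 19.1, 26.4, 18.4 and 17.7 RPM in AGO2 Dnmt1 KO. Groups did not overlap in either gene, and Dnmt1 KO replicate 2 was the highest for mt-Rnr2. Compared with total RNA of day 9, mt-Rnr2 was lower in AGO2 by a log2 change of -7.28 ± 0.20 in control and -6.55 ± 0.20 in Dnmt1 KO (limma adjusted p = 1.417e-14 and 3.705e-14), and mt-Rnr1 by -6.27 ± 0.20 and -5.90 ± 0.20 (adjusted p = 4.677e-14 and 1.016e-13). mt-Nd3 entered the test through total RNA alone. It had 3 reads in the 4 AGO2 control libraries and 1 read in the 4 AGO2 Dnmt1 KO libraries. Its level in total RNA was 1026 times (95% exact interval 349 to 4988) that in AGO2 in control, and 729 times (130 to 28831) in Dnmt1 KO, with counting error only in the intervals.

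Within AGO2, mt-Rnr1 and mt-Rnr2 were the only mitochondrial genes that passed the filter. They passed it through the Dnmt1 KO libraries alone, because every AGO2 control library lay below its threshold in both genes. A higher value in Dnmt1 KO was thus fixed for both genes by the filter. Both were called higher in Dnmt1 KO (36.4% of the 456 genes tested were called and 24.8% were called higher), by 1.38 ± 0.18 (limma adjusted p = 0.0002414) and 1.41 ± 0.19 (adjusted p = 0.0003024). Because of this selection, the calls do not test the direction of the difference, and neither gene was called without the filter. The median over all genes was 0.096. Scaled to the reads outside miRNA genes, the changes were 0.80 and 0.83, beside a median of -0.52 over all genes. The summed levels of the other classes showed the same order, with 8.68 ± 0.920 and 21.4 ± 5.52 RPM for tRNA genes and 4.76 ± 0.790 and 24.7 ± 7.81 RPM for protein-coding genes in control and Dnmt1 KO. The pull-downs differed in other ways between the genotypes: depth was 11497719 to 25423025 reads in control and 1152390 to 11520132 reads in Dnmt1 KO, and feeder and fibroblast markers summed to 1336 to 1831 against 3698 to 4367 RPM. Fragments of nuclear protein-coding genes without a small RNA gene also differed, at 4010 ± 591 against 6763 ± 433 RPM. Blood-cell miRNAs summed to 1105 to 1475 against 3152 to 6179 RPM. Genotypes of these libraries rest on their titles, which their genotype tags reverse, and reads over *Dnmt1* (0.783 to 1.77 RPM in control, 2.34 to 4.50 RPM in Dnmt1 KO) do not settle it. The feeder markers, mostly *Mir143*, were higher in the libraries titled Dnmt1 KO in AGO2 as in total RNA of day 9, and so were the blood-cell miRNAs. ESC markers, lower in Dnmt1 KO on day 9, overlapped in AGO2 (194871 to 270691 RPM in control against 194406 to 283659 RPM in Dnmt1 KO). The markers do not settle the genotypes either. The part of depth, markers and nuclear fragments in the rRNA differences was not tested.

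**Figure D5:**
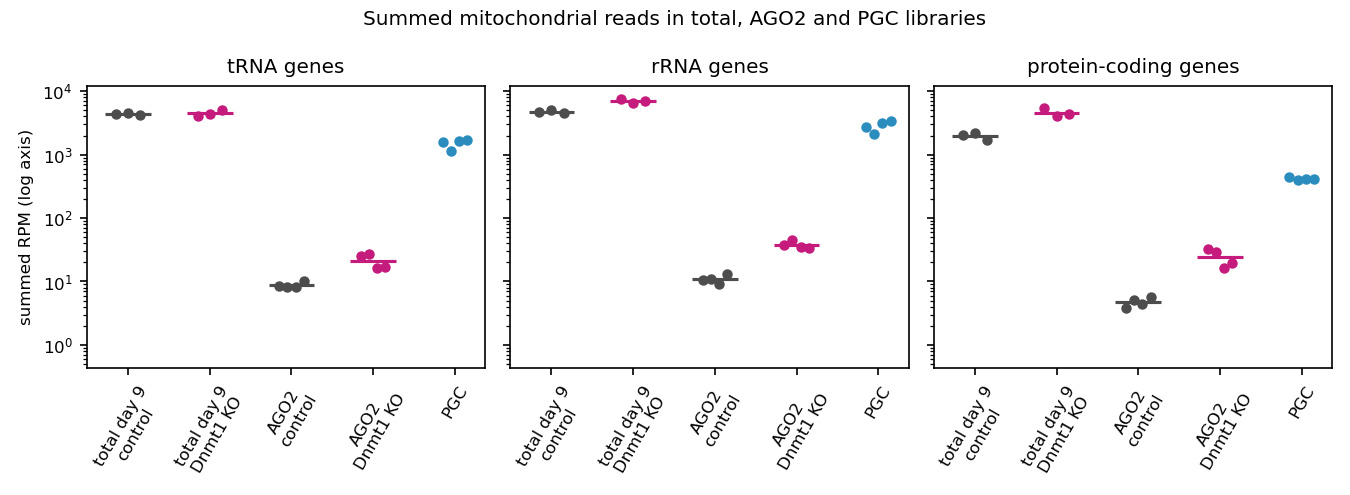
Summed RPM (log axes) of the 3 gene classes in total small RNA of day 9 (3 libraries per genotype), AGO2 pull-downs (4 per genotype) and PGCs (4 single libraries, E13.5 then E14.5, female before male); lines are means. AGO2 libraries lie far below total RNA, with Dnmt1 KO above control, and PGC libraries lie between AGO2 and the day 9 cells.

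In germ cells, the 4 libraries without the suffix R1 held fewer mitochondrial fragments than any ESC library of the time course. With 1 such library per stage and sex there is no test. The summed level was 4806 RPM (95% exact Poisson interval 4725 to 4887) in E13.5 female, 3630 RPM (3562 to 3699) in E13.5 male, 5231 RPM (5155 to 5308) in E14.5 female and 5545 RPM (5435 to 5657) in E14.5 male PGCs. The lowest of the 36 ESC libraries stood at 7613 RPM. The R1 library of E13.5 female, with 1066 mitochondrial reads, went the other way at 9299 RPM (8749 to 9875), whereas those of E13.5 male (106 reads) and E14.5 male (5299 reads) were at 1757 RPM (1439 to 2126) and 3988 RPM (3882 to 4097). Protein-coding fragments summed to 402 to 440 RPM in the 4 libraries, with intervals that overlap, whereas rRNA ran from 2097 RPM (2045 to 2150) in E13.5 male to 3415 RPM (3328 to 3503) in E14.5 male. The R1 library of E14.5 male gave an rRNA sum of 2277 RPM (2196 to 2359), within the span of the E13.5 libraries, so the order of stages depends on which of its libraries is used.

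Single genes varied between the PGC libraries. mt-Rnr1 measured 286 RPM (E13.5 female), 299 RPM (E13.5 male), 668 RPM (E14.5 female) and 740.2 RPM (E14.5 male), but 283 RPM in the R1 library of E14.5 male, at the level of E13.5. mt-Tl1 measured 371, 240.4, 127 and 138 RPM with the libraries in that sequence, but 264 RPM in the R1 library of E14.5 male. In males, the order of the stages in both genes therefore turned with the library. mt-Rnr2 measured 2487, 1798, 2526 and 2674 RPM, and 1994 RPM in the R1 library of E14.5 male. mt-Tv measured 194, 185, 414 and 439 RPM, and 306 RPM in that R1 library, while the R1 libraries of E13.5 female and male stood higher, at 2460.1 RPM (282 reads) and 497 RPM (30 reads). Library and stage cannot be told apart. mt-Co1 measured 64.3, 71.2, 85.9 and 72.6 RPM and mt-Nd1 93.8, 89.0, 108 and 110.1 RPM, below the ESC libraries of days 1 to 11. mt-Ts2, at 400.1, 160.2, 475 and 490.0 RPM, was lowest in E13.5 male.

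Nuclear genes whose proteins transcribe, process or degrade mitochondrial RNA gave few small RNA reads, and such reads do not measure their mRNA. Of 41 listed, 37 were in the table and 3 passed the filter in the time course. *Trmt5*, a tRNA methyltransferase gene, was higher in Dnmt1 KO on day 9 (log2 change 1.03, limma adjusted p = 0.03835) and lower on day 25 (-0.90, adjusted p = 0.04661), and rose in control cells from day 1 to day 25 (2.11, adjusted p = 4.224e-06). *Lrpprc*, whose protein stabilizes mitochondrial mRNAs, was not called between genotypes, but changed in control cells by -1.22 from day 1 to day 11 (adjusted p = 9.145e-07) and by 0.52 from day 1 to day 25 (adjusted p = 0.01525). *Tbrg4* was not called in any comparison of the time course.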

How the data were processed

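The authors deposited RPKM per gene. Per the labels and the study's methods they trimmed reads (Trim Galore 0.3.5), kept 20 to 24 nt, mapped them with Bowtie2 2.2.9 to NCBIM37 and counted in SeqMonk. RPKM times gene length in kb gave RPM, and whole reads were read back from the step between low values (100% whole within 5% of a step). All 32101 genes matched GENCODE vM1 by position. RPKM is not a count, so limma 3.58.1 (limma-trend, R 4.3.3) was fitted to log2(RPM + 1) of genes with at least 10 RPM in at least 3 libraries. Scaling was TMM, computed on the genes tested (trimming 30% by ratio and 5% by abundance). The pseudocount of 1 understates changes of rare genes. One fit held the 36 time course libraries, one the 8 AGO2 libraries, and one these 8 with the 6 of day 9. Tests were two-sided, with Benjamini-Hochberg adjustment over all genes of a comparison. On simulated data with known changes the fit was tested first. Mitochondrial genes, lists and comparisons were chosen with earlier results of these data known. Named were the 2 genes of each class with the highest mean RPKM, and up to 3 called genes per comparison and direction with the smallest adjusted p and no overlap. Other genes are named with single values. Same-numbered AGO2 libraries of the 2 genotypes deviated together (correlations 0.340, 0.269, 0.194 and 0.386), so the numbers may pair them, though no label says so. The AGO2 p-values come from fits without this pairing. With a replicate block in the fit of the 8 AGO2 libraries, both rRNA genes stayed called. Windows of 22 bases of chromosome MT were searched in the rest of NCBIM37, both strands. Alternatives were other scalings, pseudocount 5, no filter, voom on the reads read back, R1 libraries and leaving out each library. Depth was 521066 to 6239009 reads per time course library. Intervals cover counting error only.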

Additional observations from a re-analysis of the deposited data

Results flagged for a closer look

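In the 2 AGO2 groups of 4 libraries, 12 tests were made for a library far from the others, of which chance alone gives about 1 in 20. One stood apart: mt-Rnr2 measured 26.39 RPM in AGO2 Dnmt1 KO replicate 2, against 17.7 to 19.1 RPM in the other 3. Without that library both rRNA genes were still called.

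The genotype difference changed between day 1 and day 25 by a direct limma test of the interaction for 6 of 24 genes, with log2 changes of 0.6741 (mt-Tm), 0.65 (mt-Ti), 0.6175 (mt-Co1), 0.6101 (mt-Tc), 0.4905 (mt-Tv) and 0.3761 (mt-Rnr1). mt-Tm was called in all 19 alternatives, and the other 5 in 7 to 10 of 19.

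The 2 libraries labelled "none", which entered no comparison, held mitochondrial reads: 79 of 57155 reads in the one titled control (0.138%) and 78 of 9830 in the one titled Dnmt1 KO (0.793%). Both exceed the 3 reads that a count of 0 allows.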

How the results depend on the processing

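No mitochondrial call of a genotype or time comparison changed direction. The calls on protein-coding genes on day 6 (6 genes) and on day 9 (mt-Co1, mt-Cytb, mt-Nd1, mt-Nd2, mt-Nd4, mt-Nd5) held in all 14 alternatives. Against 3, 1, 14 and 6 calls (day 3, day 11, day 25, change from day 1 to day 25), library totals gave 1, 0, 7 and 1, reads outside miRNA genes 5, 0, 6 and 1, and no filter 0, 0, 7 and 2. Voom gave 6, 6 and 2 (day 3, day 25, change), median-ratio factors and pseudocount 5 gave 6 and 5 on day 3, and the R1 libraries 0 on days 3 and 11. Leaving out 1 library gave 0 to 0 (day 1), 0 to 5 (day 3), 7 to 11 (day 6), 9 to 11 (day 9), 0 to 1 (day 11), 7 to 14 (day 25), 12 to 16 (mean over days), 1 to 8 (change), 12 to 16 and 18 to 19 (control day 11 and day 25 against day 1), 2 to 2 (AGO2), and 23 to 24 and 24 to 24 (AGO2 against total, control and Dnmt1 KO). In AGO2 the rRNA calls were lost without the filter, and averaging replicates 1 and 2 and replicates 3 and 4 gave 0, since no mitochondrial gene then passed the filter. In AGO2 Dnmt1 KO against total, mt-Tf went from -2.36 to 0.16 when scaled to the reads outside miRNA genes. The other causes were not tested.

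A replicate block gave 0, 3, 11, 11, 1 and 13 calls on days 1 to 25, 16 for the mean, 6 for the change, 15 and 19 in control cells over time and 2 in AGO2, and so moved no count by over 1.5 times. In the time course same-numbered libraries did not deviate together (correlations from -0.0661 to 0.0468).

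Of the libraries without the suffix R1 that were tested, those of AGO2 held the fewest mitochondrial reads (111 to 809), followed by day 25 (4547 to 7827).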
